A study of Bos taurus with 32 samples.

Results

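N6-methyladenosine (m6A) sites within the consensus motif DRACH in the 3' untranslated regions (3'UTRs) of protein-coding mRNAs were followed from the immature oocyte to the blastocyst of cattle. DRACH stands for any base but C, then A or G, then the methylated A, then C, then any base but G. The deposited site table holds 65535 adenosines, of which 6184 lie in a 3'UTR of a protein-coding gene within such a motif. A score of 0.1 or more at a stage was taken as a call. The 5846 sites called in germinal vesicle (GV) oocytes, 8.92% of the table, are the sites described here, and they lie in 2834 genes on 30 chromosomes. Scores near that limit were close together, with a lowest included GV score of 0.1001 and a highest excluded one of 0.0951. Of the other 338 sites, 320 had a GV score of 0.

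Libraries were made by m6A-SAC-seq, a chemistry that adds an allyl group to m6A so that reverse transcription leaves a mutation there. The labels describe 32 libraries from 8 stages, with 2 arms (allyl-treated and input), 2 replicates in each arm, and 200 cells for each replicate of a stage. The stages were GV oocytes, metaphase II (MII) oocytes matured in vitro, embryos of 2, 4, 8 and 16 cells, then the morula and the blastocyst, the embryos having been produced by in vitro fertilisation of oocytes from slaughterhouse ovaries, and cells were pooled within a library. The table gives 1 score per stage, with no arm or replicate, so no value has a replicate error, the read depth is unknown and no test between stages or regions was possible. Exact 95% binomial intervals are given for shares and cover the counting of sites only, and sites of 1 transcript are not independent of each other. A score of 0 may stand for an unmethylated adenosine, for too few reads or for a transcript that is no longer there, and these cannot be told apart. All shares and score ratios to GV are taken at sites chosen for their GV call, so sites first called later are not part of them.

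m6A is placed on mRNA by the METTL3 and METTL14 writer complex at DRACH motifs, and in somatic mammalian cells it is densest in long internal exons, around the stop codon and in the 3'UTR. There it is bound by reader proteins, among them YTHDF2, which recruits deadenylases and shortens the life of the mRNA, and the IGF2BP proteins, which stabilise it. The 3'UTR is also where oocytes control poly(A) tail length, translation and decay of stored maternal mRNAs, which are cleared as the embryonic genome takes over, in cattle mainly at the 8-cell to 16-cell stage.

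The sites were concentrated on 6 of the 18 possible DRACH motifs, and these 6 are shown because the scores are comparable only within a motif. They are written 5' to 3' with the scored adenosine in capitals, and T stands for the U of the RNA.
Motif ranked 1: ggAct
Motif ranked 2: agAct
Motif ranked 3: ggAca
Motif ranked 4: tgAct
Motif ranked 5: agAcc
Motif ranked 6: ggAcc
The motif ggAct held 1442 sites, 24.7% of the total, and agAct 1398 sites or 23.9%. They were followed by ggAca with 707 sites, tgAct with 677, agAcc with 552 and ggAcc with 457. The motif agAca had no site at all among the 5846, although its relatives agAct and agAcc had 1398 and 552, and 7 such sites were listed in coding sequence. Motifs with A in the second position were rare, with 134 sites at gaAct as the most frequent of them.

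Scores differed widely between motifs. The median GV score was 0.391 over all sites (quartiles 0.216 and 0.719). It was 0.490 at ggAct, 0.352 at agAct and 0.282 at tgAct, but 2.01 at ggAca, where 525 of 707 sites scored above 1 and the highest reached 9.02. At ggAct and agAct the highest score at any stage was 1.44. The scale of the score is not given in the sources used here, and values above 1 are not fractions of methylated molecules. Scores also repeat, with 3040 distinct pairs of motif and GV score among the 5846 sites and 51 ggAct sites at exactly 0.719, which limits how finely 2 sites can be ordered.

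At the same motif, 3'UTR sites scored higher than coding sites in GV oocytes. The medians were 0.490 in 3'UTRs and 0.3896 in coding sequence at ggAct, 0.352 and 0.258 at agAct, and 2.01 and 1.19 at ggAca. The intervals of these medians, from order statistics, did not overlap for any of the 3 motifs, for example 1.85 to 2.19 in 3'UTRs and 1.07 to 1.31 in coding sequence at ggAca. Of the 12 motifs with at least 20 sites in both regions, 10 had the higher median in the 3'UTR, the exceptions being aaAct and gaAcc. The motif make-up of the regions differed too. The motif ggAct held 24.7% of 3'UTR sites and 17.0% of the 11597 coding DRACH sites, agAcc 9.44% and 19.1%, and ggAca 12.1% and 13.1%.

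Many of these sites were called again after meiotic maturation, few in the 2-cell embryo, and more again in the 4-cell embryo. At MII 2863 of the 5846 sites were called, 49.0% (interval 47.7 to 50.3), against 34.1% of all 60417 GV-called sites of the table. At the 2-cell stage 542 were called, 9.27% (8.54 to 10.0), with 7.39% for the whole table. The 4-cell stage had 1414 called sites, 24.2% (23.1 to 25.3), with 22.7% for the whole table. Of these 1414 sites, 354 had also been called in 2-cell embryos.

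From the 8-cell stage on, between 6.74% and 11.2% of the sites were called. The 8-cell stage had 557 called sites or 9.53% (8.79 to 10.3), against 9.32% for all GV-called sites, and the 16-cell stage 450 or 7.70% (7.03 to 8.41), against 6.01%. Morulae had the fewest, 394 or 6.74% (6.11 to 7.41), against 4.42%. Blastocysts had 653 or 11.2% (10.37 to 12.01), against 7.64%, so the share in blastocysts lay above that of every stage from the 8-cell embryo to the morula. At the 4-cell and 8-cell stages the share was close to that of the whole table, which is no result about these sites.

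**Figure D1:**
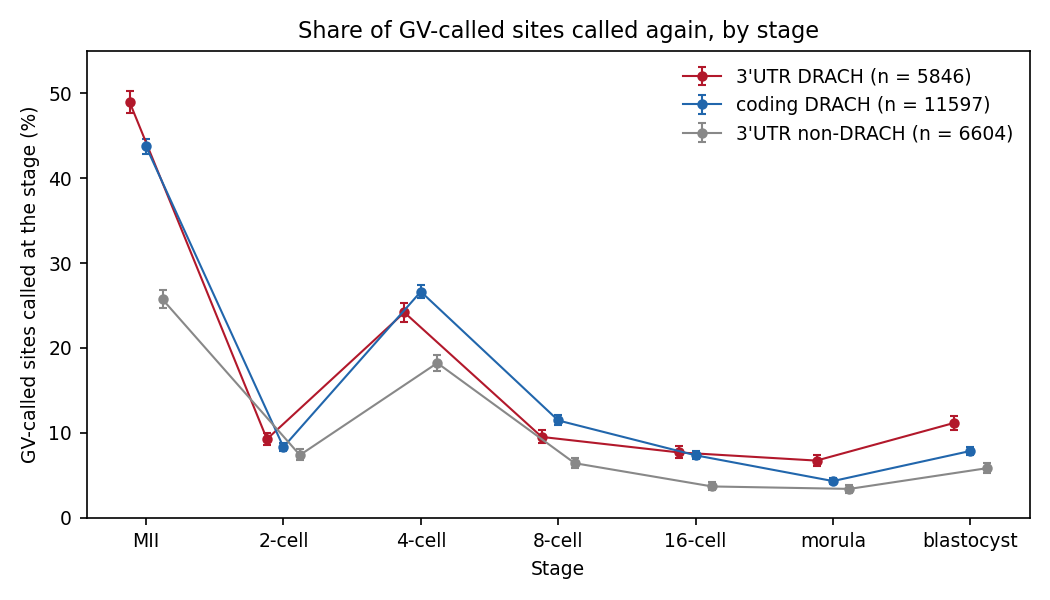
Percentage of GV-called sites that were called at each later stage (vertical axis) for DRACH sites of 3'UTRs, DRACH sites of coding sequence and other sites of 3'UTRs, with exact 95% binomial intervals as bars. The 3'UTR DRACH sites lie at 49.0% at MII, 9.27% in 2-cell embryos and 24.2% in 4-cell embryos, below the coding DRACH sites at the 4-cell and 8-cell stages and above them at MII, in morulae and in blastocysts.

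The order of 3'UTR and coding sites changed with the stage. At MII 49.0% of 3'UTR DRACH sites and 43.7% of coding DRACH sites were called. The order was the other way round in cleavage, with 24.2% in 3'UTRs and 26.6% in coding sequence in 4-cell embryos and 9.53% and 11.5% in 8-cell embryos. In morulae it was 6.74% in 3'UTRs and 4.33% in coding sequence, and in blastocysts 11.2% and 7.87%. The intervals of both regions were apart at these 5 stages and overlapped in 2-cell embryos (9.27% and 8.34%) and in 16-cell embryos (7.70% and 7.36%). The 4-cell difference of -2.45 percentage points depends on the limit used for a call and was 0.41 when a later score of 0.2 was required.

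Motif and gene were each held alike in turn. With coding sites weighted to the motif make-up of the 3'UTR sites the differences were 4.24 percentage points at MII, -2.16 in 4-cell embryos, -1.94 in 8-cell embryos, 2.44 in morulae and 3.13 in blastocysts. Within the 1955 genes that had GV-called DRACH sites in both regions, 53.0% of the 4364 3'UTR sites and 49.5% of the 6693 coding sites were called at MII. In the same genes 27.5% of 3'UTR and 31.9% of coding sites were called in 4-cell embryos, and 10.8% and 7.46% in blastocysts. Within the same genes, 3'UTR sites thus also lay below coding sites in 4-cell embryos and above them in blastocysts.

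Sites of 3'UTRs outside DRACH were called again less often at each later stage. At MII 49.0% of DRACH sites were called and 25.7% (interval 24.7 to 26.8) of the 6604 other sites. At the 4-cell stage the shares were 24.2% at DRACH and 18.2% at other sites, and in blastocysts 11.2% and 5.84%. The gap was smallest in 2-cell embryos, with 9.27% at DRACH and 7.39% at other sites. With the other sites weighted to the GV scores of the DRACH sites, the difference at MII was 21.5 percentage points, against 23.2 unweighted. DRACH and other sites share no motif, and scores are comparable only within a motif. The weighting therefore cannot make the scores of both kinds alike, and no conclusion is drawn from it.

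Most sites were called at few stages, and the share of these patterns over the whole table was not computed. At each later stage all GV-called sites of the table were called less often than these sites. They were at 34.1% at MII and 7.64% in blastocysts, against 49.0% and 11.2% here. Of the 5846 sites 2355, or 40.3%, were called at GV only, 1228 at GV and MII only, and 508 at GV, MII and the 4-cell stage only. A total of 119 sites were called at GV and in blastocysts and at no stage between. The number of stages at which a site was called was 2 for 1680 sites, 3 for 935 sites, 4 for 455 sites and 5 for 246 sites, and 25 sites were called at all 8.

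A call at MII went with calls at every later stage. Among the 2863 sites called at MII 39.6% were called in 4-cell embryos, against 9.39% of the 2983 sites not called at MII. At the 8-cell stage the shares were 16.6% and 2.72%, and in blastocysts 14.98% and 7.51%. The ratio between both classes was thus smallest in blastocysts. Of the 653 sites called in blastocysts, 270 were called in morulae and 238 in 4-cell embryos, while 199, or 30.5%, were called at no stage from 2-cell to morula.

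Sites with a high GV score were called more often at MII, and in embryos the order of the classes changed with the stage. Sites of the motifs with at least 20 members were divided into 4 equal classes of GV score within their motif. At MII 54.6% of the highest class and 39.1% of the lowest class were called. The shares of the highest and the lowest class were 7.55% and 9.47% in 2-cell embryos, 24.8% and 20.5% in 4-cell embryos, 9.88% and 8.29% in 8-cell embryos, 7.41% and 6.70% in morulae, and 11.9% and 10.6% in blastocysts, with overlapping intervals. At the 16-cell stage they were 9.47% in the highest and 6.01% in the lowest class, and those intervals did not overlap. Of the 5 sites with the highest GV score at each of the 3 most frequent motifs, 8 were at 0 at each later stage. Among them are, at ggAct, a site of BCL9, a cofactor of beta-catenin, with a GV score of 1.44 and a site of STAM, an endosomal sorting protein, with 1.298.

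The share called again at MII differed by motif. It was 61.3% at ggAct (interval 58.7 to 63.8), 50.0% at agAct, 50.8% at ggAcc, 48.0% at agAcc and 46.0% at ggAca. It was lower at motifs that start with tg, with 38.4% at tgAct, 29.1% at tgAca and 28.9% at tgAcc. In blastocysts ggAct was again the highest of the frequent motifs at 14.4%, and ggAca stood at 9.19%.

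Where a site was called at both stages, its score was lower at MII and lowest in the 4-cell embryo, and higher than at GV from the 16-cell stage on. From the scores of MII over those of GV, the median log2 ratio was -0.25 at 2863 sites (interval -0.27 to -0.22), with 32.8% of sites higher at MII, against 41.1% of all sites of the table called at both stages. At the 4-cell stage it was -0.51 at 1414 sites (-0.57 to -0.46), with 24.9% higher, against 45.3% for the whole table. The 2-cell ratio of -0.05 had an interval on both sides of 0 and 46.7% of sites higher, against 66.8%, and the 8-cell ratio was -0.23 with 38.4% higher, against 61.1%. The whole table holds other motifs and other GV scores, so its shares, here and below, give no result about 3'UTR DRACH sites. At ggAct the 4-cell median log2 ratio to GV was -0.80 in 3'UTRs and -0.63 in coding sequence. The 8-cell values at ggAct were -0.41 and -0.39. At agAct they were -0.53 and -0.34 in 4-cell embryos, and -0.20 and 0.03 in 8-cell embryos.

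In later embryos the sign of the ratio was the opposite. The median log2 ratio to the GV score was 0.14 in 16-cell embryos with 59.3% of 450 sites higher, against 61.6% for the whole table. In morulae it was 0.42 (interval 0.30 to 0.47) with 73.6% of 394 sites higher, against 62.5%. In blastocysts it was 0.37 (0.32 to 0.42) with 74.7% of 653 sites higher, against 62.3%. Since entry required a GV call but not a high one, and a low later score is not called, these ratios describe sites called at both stages and not the average transcript.

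The blastocyst and the 4-cell embryo form a pair in which neither score was used to choose the sites other than by the call itself. At 238 sites called at both, the blastocyst score was higher at 89.5%, with a median log2 ratio of 1.08 (interval 0.92 to 1.24). The ratio was 0.49 (0.38 to 0.65) at 378 coding DRACH sites and 0.21 (0.06 to 0.36) at 138 other 3'UTR sites. These sets differ in motif make-up and the ratio was not computed within a motif, so no difference between regions is read from it. Within motifs, the blastocyst to GV ratio was 0.39 in 3'UTRs and 0.39 in coding sequence at ggAct. It was 0.42 and 0.22 at agAct, and 0.72 and 0.44 at ggAca. In morulae the ratio to the 4-cell score of the 3'UTR DRACH sites was 1.0 (0.89 to 1.19) at 171 sites called at both. The blastocyst to morula ratio at 3'UTR DRACH sites was 0.01 (interval -0.05 to 0.10), on both sides of 0. At the 206 sites called at GV, MII, the 4-cell and the blastocyst stage alike, median scores were 0.476, 0.396, 0.258 and 0.619 in that order.

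The same course was seen at the motifs ranked 1 to 4, and at agAct and also at the motif ranked 3, medians of 3'UTR and coding sites had their highest ratio in morulae or blastocysts. At agAct the median score of called sites was 0.352 at GV, 0.231 in 4-cell embryos, 0.466 in 16-cell embryos, 0.516 in morulae and 0.507 in blastocysts in 3'UTRs. Coding sites of that motif had medians of 0.258, 0.213, 0.331, 0.314 and 0.330 at those stages. At ggAca the blastocyst median was 3.73 in 3'UTRs (65 sites) and 1.76 in coding sequence (91 sites), against 0.946 and 0.710 in 4-cell embryos. At ggAct the regions stayed closer, with 0.671 in 3'UTRs and 0.574 in coding sequence in blastocysts and overlapping intervals. The 552 sites of agAcc did not follow this course. Their medians in 3'UTRs were 0.211 at GV, 0.212 in 4-cell embryos, 0.226 in morulae and 0.208 in blastocysts, and their median log2 ratio to GV was -0.02 in 4-cell embryos and 0.19 in blastocysts. At ggAcc the ratio was -0.47 in 4-cell embryos, but -0.04 in 16-cell embryos and 0.24 in blastocysts.

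**Figure D2:**
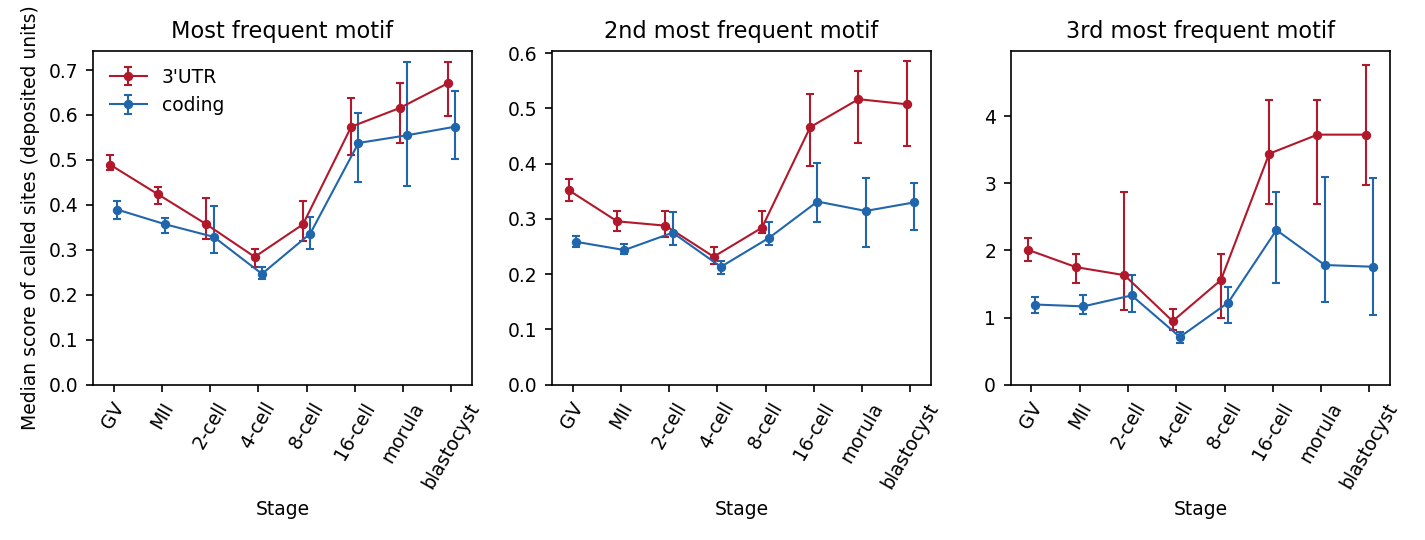
Median score of the sites called at each stage, in deposited units, for 3'UTR and coding sites of the 3 most frequent motifs (ranked 1 to 3 from left to right), with order-statistic 95% intervals of the median as bars. In each panel the 3'UTR medians are lowest in 4-cell embryos and highest in morulae or blastocysts, and at agAct they reach 0.516 in morulae, where coding sites are at 0.314.

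The 25 sites called at all 8 stages lie in 23 genes. The 12 of them with the highest lowest score over the stages are shown with their motifs, in that order. The order uses raw scores across motifs, so it favours motifs with high scores. Positions are those of the deposited table, whose genome build is not given in the sources used here, and all are annotated there as 3'UTR.
PRC1 at chr21:21699003, plus strand: gaAca
EFHD2 at chr16:52058729, minus strand: ggAcc
SGTA at chr7:20917086, plus strand: ggAct
SUPT5H at chr18:49158830, plus strand: ggAct
GATAD2A at chr7:3817823, minus strand: ggAcc
ENSBTAG00000005654 at chr11:50094345, minus strand: ggAct
YWHAG at chr25:34370692, minus strand: ggAct
PTBP1 at chr7:43376966, plus strand: agAcc
MCM3 at chr23:24695069, minus strand: ggAct
TIMM13 at chr7:21155694, plus strand: ggAct
MTFR1 at chr14:30098189, plus strand: agAct
YWHAG at chr25:34370471, minus strand: ggAct
The site of PRC1, which bundles microtubules of the central spindle, had scores of 2.29, 2.21, 3.05, 2.40, 2.65, 2.47, 3.27 and 2.53 from GV to blastocyst. It lies on a motif with high scores in general and varied little between stages. The site of SGTA, a cochaperone of membrane protein insertion, had 0.665, 0.673, 0.646, 0.499, 0.543, 0.767, 0.719 and 0.598.

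Others among the 25 varied more between stages. The site of MCM3, a subunit of the replicative helicase, had scores of 0.698, 0.533, 0.521, 0.264, 0.408, 0.681, 0.864 and 1.24 from GV to blastocyst. YWHAG, which encodes the phosphoserine-binding protein 14-3-3 gamma, had 2 such sites, and the one at position 34370471 had 0.815, 0.569, 0.215, 0.361, 0.549, 0.997, 0.939 and 0.895. A site of DYNLL2, a dynein light chain, had 0.925, 0.695, 0.183, 0.271, 0.308, 0.900, 0.533 and 0.907. In these 3 the lowest score fell in the 2-cell or 4-cell embryo. Those of MCM3 and YWHAG were above their GV score in morulae and blastocysts, while that of DYNLL2 was below it at each later stage. SUPT5H, a transcription elongation factor, differed by having its lowest score at GV (0.486) and 1.03 in both morulae and blastocysts.

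Over the 25 sites the median score was 0.391 at GV, 0.447 at MII, 0.265 in 2-cell embryos, 0.271 in 4-cell embryos, 0.271 in 8-cell embryos, 0.407 in 16-cell embryos, 0.533 in morulae and 0.504 in blastocysts. Blastocyst scores were above 4-cell scores at 23 of the 25 sites and above GV scores at 18. The genes include the cap-binding protein EIF4E, the chaperone HSP90AB1, the splicing repressor PTBP1 and the small GTPase RHOA. They also include the histone gene H2AC6 and gene ENSBTAG00000058034, with 2 sites. Histone and actin genes have near-identical copies, so the assignment of their reads is uncertain.

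**Figure D3:**
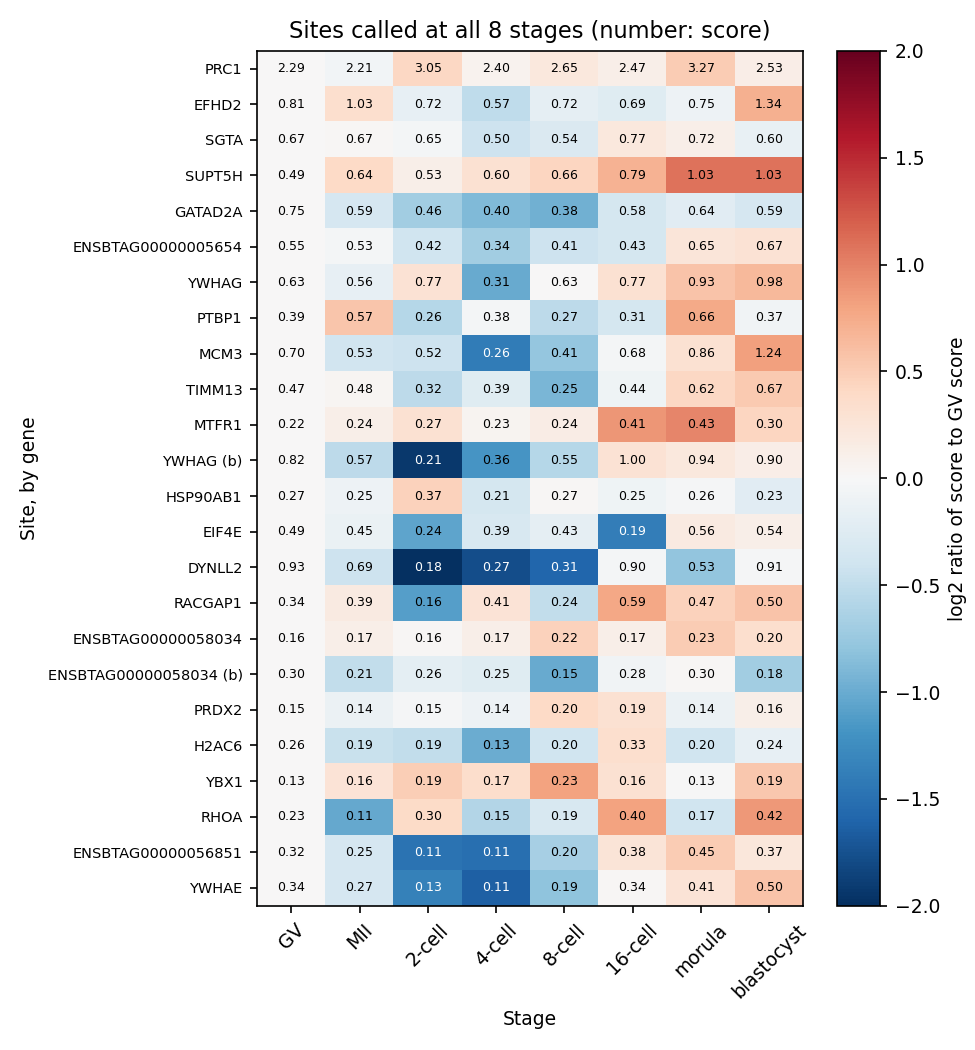
Scores of sites called at all 8 stages, printed in each cell, with colour for the log2 ratio of the score to the GV score of the site; rows are sites named by gene, a second site of a gene is marked (b), and columns are stages. Blue cells gather at the 2-cell to 8-cell stages and red cells from the 16-cell stage to the blastocyst, while the PRC1 site stays between 2.21 and 3.27.

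Among sites called in both GV oocytes and blastocysts, 4 of the 5 highest ratios were at ggAca, which held 65 of these 653 sites. Scores of ggAca reach 9.02, against at most 1.44 at ggAct and agAct. The ranking was thus made across motifs with unlike score ranges. A site of NSFL1C, a cofactor of the p97 ATPase, scored 5.98 in blastocysts and 0.498 at GV (log2 ratio 3.58). A site of CTDNEP1, a phosphatase of the nuclear envelope, scored 2.65 in blastocysts and 0.303 at GV. The opposite was found for a tgAca site of the translation factor gene EIF4H, with 0.119 in blastocysts and 0.914 at GV (log2 ratio -2.94), and for a ggAca site of PABPN1, a nuclear poly(A)-binding protein, with 1.03 and 3.38. These sites were picked as extremes of 653 and carry no error.

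The sites were spread thinly over genes. Of the 2834 genes 1471 had 1 site and 403 had at least 4. The kinesin gene KIF3C had the most with 16, followed by the deubiquitinase gene JOSD1, JPT2 and the JNK-activating kinase gene MAP2K4 with 14 each, and TPBGL with 12. The splicing factor gene PRPF18, SS18, a subunit of the BAF chromatin remodeller, and the p53 target TP53INP1 had 11 each, and the kinase gene ABL1 and the adaptor gene CRK 10 each.

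The KIF3C sites lie between positions 73493159 and 73495277 on the plus strand of chromosome 11. Of the 16 sites 8 were called at MII, 2 in 2-cell embryos, 6 in 4-cell embryos and 4 in 8-cell embryos, and none later. A ggAct site of this gene at position 73493720 had scores of 0.782, 0.512, 0, 0.373 and 0.4001 from GV to the 8-cell stage. JOSD1 had 10 sites at MII, 2 in 2-cell embryos, 11 in 4-cell embryos, 3 in 8-cell embryos and none later. CRK was unlike these genes, with 7, 4, 7, 4, 1, 2 and 6 called sites from MII to blastocyst. Its ggAct site at position 22567292 scored 1.03 at GV, 0.464 at MII, 0.171 in 4-cell embryos and 1.14 in blastocysts.

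Of the 403 genes with at least 4 sites, 33 had each of them called again at MII, where 49.0% of all sites were called. How many such genes that share alone would give was not computed, so the count is no result about these genes. HBEGF, a growth factor of the EGF family, had 7 of 7, and its calls went on with 6 in 2-cell embryos, 6 in 4-cell embryos and 5 in 8-cell embryos, followed by none. WEE2, the oocyte kinase that holds meiotic arrest, had 6 of 6 at MII, 2 in 2-cell embryos, 3 in 4-cell embryos and none later. Others were ARMC7 (6 of 6) and, with 5 of 5 each, the histone chaperone gene ASF1B, the kinase gene CDK17, the stress sensor gene ERN1, GRPEL1, MAPRE1 and the phosphatase gene PPM1G. In HBEGF, ARMC7, WEE2, CDK17 and ERN1 no site was called from the 16-cell stage on. That was common, as 314 of the 403 genes had none in 16-cell embryos, 341 none in morulae and 314 none in blastocysts. At 18 of the 403 genes no site was called at MII.

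Closely placed sites of HBEGF had a like course in some cases and not in others. The agAct site at position 51533630 on the minus strand of chromosome 7 had scores of 0.282 at GV, 0.191 at MII, 0.178 in 2-cell embryos, 0.161 in 4-cell embryos and 0.243 in 8-cell embryos. A ggAct site at 51533768 had 0.577, 0.351, 0.162, 0.330 and 0.344 at these stages. Both were lower at each of these later stages than at GV, and both were at 0 from the 16-cell stage on. Other sites of the gene differed. The site at 51533783 was at 0 in 8-cell embryos, where the site at 51533791 scored 0.228. The site at 51533904 scored 0.289 at GV, 0.381 in 2-cell embryos and 0 in 4-cell embryos. With a later call at 0.2, the 24 later calls of HBEGF were 14, and the 11 of WEE2 were 7.

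At the 4-cell stage, where 24.2% of all sites were called, 8 of the 403 genes had each of their sites called. CYB5A, which encodes cytochrome b5, had 7 of 7 after 1 in 2-cell embryos, and 1 in 8-cell embryos. ASF1B and the GTPase gene RALB had 5 of 5, and AKIRIN2, the demethylase gene ALKBH5, CNNM2, the DNA damage ligase gene RNF8 and SAP30BP 4 of 4 each. The kinase gene RIOK3 had 7 of 8 and the polarity gene CRB3 6 of 7. RALB was also called at all 5 sites in the 2-cell embryo, while RIOK3, CNNM2 and RNF8 had none in 8-cell embryos.

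At the 8-cell stage the highest shares were found in ACTB (4 of 4), the chaperone gene DNAJB1 (8 of 10), and with 3 of 4 each BMP15, H2AX, ILRUN, SAP30BP and WAC. CDCA8, a subunit of the chromosomal passenger complex, DYNLL2 and HBEGF had 5 of 7 each. DNAJB1 had 5 sites called in 16-cell embryos and 2 in blastocysts. Its ggAct site at position 11272245 scored 0.530, 0.492, 0.538, 0.312, 0.266 and 0.329 from GV to the 16-cell stage, was at 0 in morulae and reached 0.916 in blastocysts.

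In blastocysts, where 11.2% of all sites were called, 6 of the 403 genes had each site called. CDH1, which encodes E-cadherin of the adherens junction, had 6 of 6, after 3 at MII, none in 2-cell and 4-cell embryos, 1 in 8-cell embryos, 4 in 16-cell embryos and 5 in morulae. CMTM6, a membrane protein, had 4 of 4 in blastocysts, 2 in morulae and none from MII to the 16-cell stage. ACTB, FOXI3, the myosin gene MYO1C and the RNA-binding protein gene SYNCRIP had 4 of 4 each, and the receptor gene F2RL1 had 4 of 5. ACACB, the respiratory chain gene COX6A1 and CHTOP had 3 of 4. In CDH1, CMTM6, SYNCRIP, F2RL1 and CHTOP no site was called at either the 2-cell or the 4-cell stage.

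The CDH1 sites lie between positions 36117682 and 36118565 of chromosome 18, plus strand. The agAct site at 36117792 had scores of 0.820 at GV, 0.354 at MII, 0 in 2-cell and 4-cell embryos, 0.637 in 8-cell embryos, 0.777 in 16-cell embryos, 0.904 in morulae and 1.09 in blastocysts. Another agAct site, at 36117922, had 0.497 at GV, 0 from MII to the 8-cell stage, and 0.491, 0.723 and 0.684 after that. That site was at 0 from MII to the 8-cell stage, close to its GV score in 16-cell embryos and above it later. The site at 36117682 scored 0.464 in blastocysts and 0.248 at GV. Those at 36118255, 36118540 and 36118565 scored 0.192, 0.140 and 0.109 in blastocysts, against 0.264, 0.104 and 0.125 at GV. Their blastocyst calls would be lost with a later call at 0.2.

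The genes with most GV sites and none in blastocysts were KIF3C (16), JOSD1 (14), TPBGL (12), PRPF18 (11) and, with 10 each, ABL1, DIRAS2, the kinase gene DYRK1A and TENT5C, which encodes a poly(A) polymerase. CLSPN, a replication checkpoint adaptor gene, and the homeobox gene CUX2 had 9 each. None of these 10 genes had a call in 16-cell embryos or morulae either. TENT5C had 9 of 10 sites called at MII and 6 in 4-cell embryos, and DYRK1A 6 and 1. Of the 403 genes with at least 4 sites, 314 had none called in blastocysts, 341 none in morulae, 111 none in 4-cell embryos and 242 none in 2-cell embryos.

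**Figure D4:**
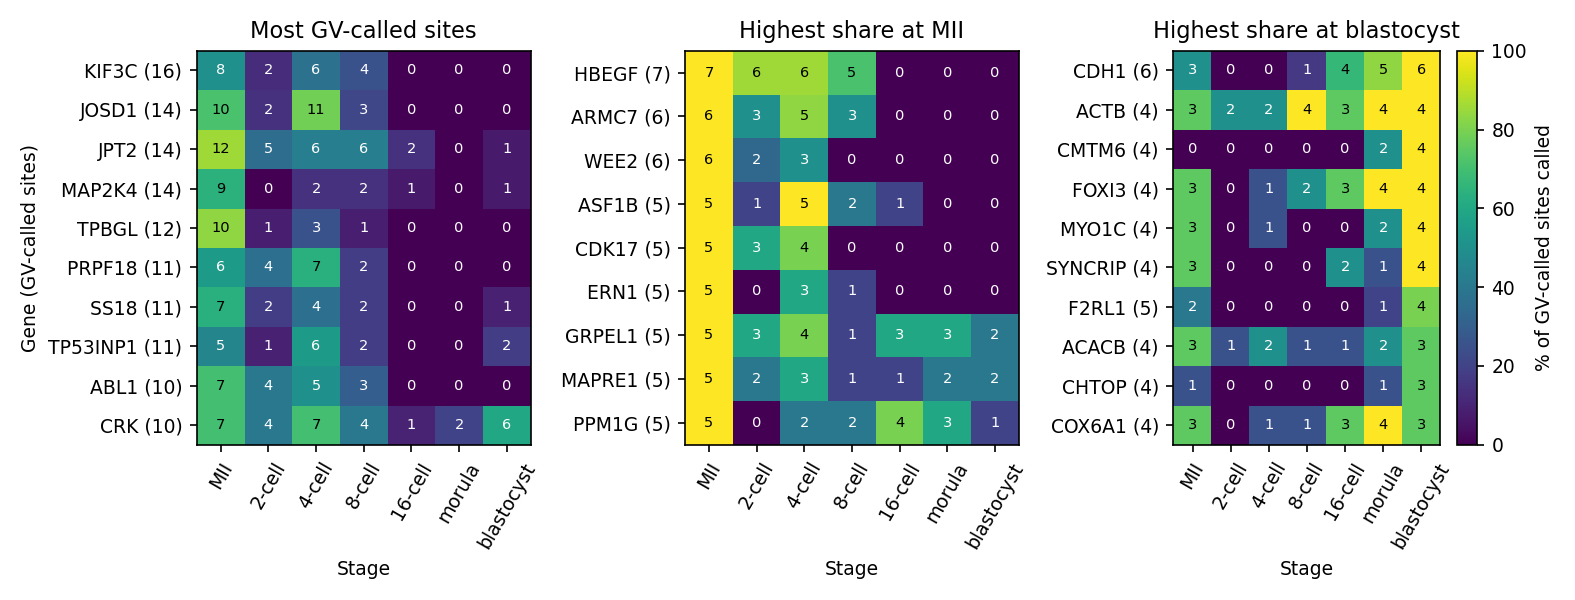
Number of called 3'UTR DRACH sites per gene and later stage, with colour for the percentage of the GV-called sites of the gene (their number in brackets); the panels show genes with most sites and, among genes with at least 4 sites, those with the highest share at MII and in blastocysts. Calls end by the 8-cell stage in KIF3C, JOSD1, HBEGF and WEE2, while CDH1 has none at the 2-cell and 4-cell stages and 6 of 6 in blastocysts.

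With a later call at 0.2, the later calls summed over stages fell by over 1.5 times in 20 of the 51 named genes. They were 2 in place of 13 in WAC, 7 in place of 22 in CDCA8, 6 in place of 14 in ASF1B, 7 in place of 14 in AKIRIN2 and 8 in place of 15 in BMP15. In ALKBH5 and TP53INP1 they were 8 in place of 16 each. Among the others were KIF3C, JOSD1, JPT2, CDK17, RALB, CNNM2, RIOK3, ACTB, DYNLL2 and TENT5C.

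Gene groups were read against the share of all 5846 sites at the stage, with no test. The genes that write m6A had few sites, 1 each in METTL14, RBM15B and METTL16 and 2 in CBLL1. None of these 5 was called at MII, against 49.0% of all 3'UTR DRACH sites, and 5 sites are too few for a comparison. The demethylase gene ALKBH5 had 4 sites, with 3 called at MII, 3 in 2-cell embryos, 4 in 4-cell embryos and 2 in the blastocyst. All 3'UTR DRACH sites were at 49.0%, 9.27%, 24.2% and 11.2% at those stages. Reader genes had 12 sites, of which 10 were called at MII, or 83.3% against 49.0% of all sites. They were at 16.7% in 2-cell and 8.33% in 4-cell embryos, against 9.27% and 24.2%. Of the 12 sites 9 lie in IGF2BP3, with 7 at MII, 2 in 2-cell embryos, 1 in 4-cell embryos and none later, and 2 in YTHDF1, both called at MII and at no later stage.

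Oocyte and maternal-effect genes had 31 sites in 12 of 28 listed genes. They were called at 74.2% at MII, 29.0% in 2-cell embryos, 48.4% in 4-cell embryos and 22.6% in 8-cell embryos, against 49.0%, 9.27%, 24.2% and 9.53% for all 3'UTR DRACH sites. The list had 2 calls in 16-cell embryos, both in BMP15, and none in morulae or blastocysts. BMP15, an oocyte growth factor on the X chromosome, had 4 sites, and its ggAct site at position 88810985 scored 0.477, 0.408, 0.337, 0.472, 0.477 and 0.555 from GV to the 16-cell stage, then 0. KIT had 5 sites, 3 of them called at MII, KHDC3L 4 with 2 at MII, and NLRP5, a subcortical complex protein, 2 with 2 at MII and 2 in 4-cell embryos.

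Genes of maternal mRNA decay had 35 sites in 14 of 30 genes. They were at 57.1% at MII, 11.4% in 2-cell embryos and 34.3% in 4-cell embryos, against 49.0%, 9.27% and 24.2% for all 3'UTR DRACH sites, and had 7 of 35 called in 8-cell embryos and 3 in blastocysts. At MII and in 2-cell embryos, with 20 and 4 of 35 called, the share lay near that of all sites. ZFP36L1, which encodes a binder of AU-rich elements, had 8 sites with 7 called at MII and 2 in 4-cell embryos. CNOT7, a deadenylase, had 5 sites, with 4 at MII and 4 in 4-cell embryos. G2/M cell cycle genes had 24 sites in 12 of 28 genes and were at 66.7% at MII, 33.3% in 2-cell embryos, 50.0% in 4-cell embryos and 20.8% in blastocysts, against 49.0%, 9.27%, 24.2% and 11.2% for all sites. Among them the spindle kinase gene AURKA had 4, with 4 at MII and 3 in 2-cell embryos, and the spindle assembly factor gene TPX2 3, with 3 at MII, 3 in 4-cell embryos and 2 in blastocysts.

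Junction and polarity genes had 32 sites in 10 of 23 genes, and 21 of the 32 were called in blastocysts and 20 at MII. They were at 62.5% at MII, 9.38% in 2-cell embryos, 28.1% in 4-cell embryos, 6.25% in 8-cell embryos, 15.6% in 16-cell embryos, 37.5% in morulae and 65.6% in blastocysts. All 3'UTR DRACH sites were at 49.0%, 9.27%, 24.2%, 9.53%, 7.70%, 6.74% and 11.2% at those stages. In morulae and blastocysts the list lay above them. In blastocysts the calls included 6 of 6 in CDH1, 3 of 4 in CTNNA1, 3 of 6 in CTNND1, 3 of 4 in YAP1, an effector of the Hippo pathway, and 2 of 2 in OCLN. LATS2 and AMOT, which act upstream of YAP1, had 2 and 3 sites and none called in blastocysts.

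Chaperone and stress genes had 22 sites in 8 of 21 genes and were at 59.1% in 4-cell embryos, 54.5% in 8-cell embryos and 27.3% in blastocysts, against 24.2%, 9.53% and 11.2% for all sites. DNAJB1 held 10 of the 22, and HSP90AB1 had 2 of 2 sites called in blastocysts. Pluripotency and lineage genes had 15 sites in 5 of 22 genes. They were at 73.3% at MII, 66.7% in 4-cell embryos and 33.3% in blastocysts, against 49.0%, 24.2% and 11.2% for all sites. Of the 15 sites 6 lie in the trophectoderm factor gene GATA2, which had 5 at MII, 4 in 4-cell embryos and 3 in blastocysts. Translation genes had 16 sites in 7 of 21 genes and were at 31.2% at MII, 43.8% in 16-cell embryos and 37.5% in blastocysts, against 49.0%, 7.70% and 11.2% for all sites, with EEF2 at 0 of 6 sites from MII to the 4-cell stage, 4 in 16-cell embryos and 4 in blastocysts. Transcription and chromatin genes had 26 sites in 10 of 24 genes and were at 80.8% at MII and 3.85% in 2-cell embryos, against 49.0% and 9.27% for all sites, and SIN3A held 8 of the 26 sites.

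Markers of other cell types had few sites. Cumulus and granulosa cell markers had 9 sites, 6 in STAR and 3 in HAS2, the other 14 genes of that list having none. Of the 9 sites 5 were called at MII and 2 in 4-cell embryos. These shares of 55.6% and 22.2% lay near the 49.0% and 24.2% of all 3'UTR DRACH sites. None was called in 2-cell embryos or from the 8-cell stage on, where 6.74% to 11.2% of all sites were called. With 9 sites, that absence is no result about these markers. Lists of sperm and blood cell markers and of embryonic genome activation genes had no site. The scores are not RNA levels, so the part of somatic cells in the oocyte values was not tested.

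Neighbouring sites of a transcript tended to be called together. The 3012 pairs of neighbours in a gene had a median distance of 135 bases (quartiles 56 and 300.2), and 271 pairs were at most 20 bases apart. In blastocysts 45.2% of sites were called where the other site of the pair was called, against 9.69% of all ends of pairs. For pairs at most 20 bases apart it was 58.2%, against 10.1% of their ends. For those over 500 bases apart it was 36.1%, against 7.76%. At the 8-cell stage pairs over 500 bases apart went the other way, with 3.57% against 7.12%, and 1 such pair was called at both sites. At MII the values were 60.5% where the other site was called and 54.2% over all ends. The 653 blastocyst calls fell in 485 genes, and the 2863 calls at MII in 1623.

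Sites close to the last listed coding site of their gene were called most often at MII. The distance was measured along the genome from the last coding site that the table lists for the gene, of any motif. That site is not the stop codon, and introns between it and the 3'UTR site are included. Which coding site comes last also depends on the coding sites detected in these data. The distance is therefore not one from the coding sequence itself. Of the 5399 sites in genes with a listed coding site, 107 lay before it, and the others had a median distance of 678 bases. At MII 63.0% of the 1287 sites within 250 bases were called, then 55.4%, 51.3%, 44.97% and 45.2% in the classes up to 500, 1000, 2000 and 5000 bases, and 33.5% of the 717 sites further away. The 447 sites in genes without a listed coding site were at 24.6%.

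The nearest and the farthest class differed in the same direction in embryos. Within 250 bases 33.1% of sites were called in 4-cell embryos and 14.9% in 8-cell embryos, against 12.4% and 2.51% beyond 5000 bases. In blastocysts the shares were 15.6% within 250 bases and 5.44% beyond 5000 bases, with the classes between at 9.79% to 11.8%. The GV score did not follow this order, with medians of 0.406 within 250 bases, 0.312 from 1001 to 2000 bases and 0.456 beyond 5000 bases. Read depth is not given per site, and its part in this order was not tested.

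**Figure D5:**
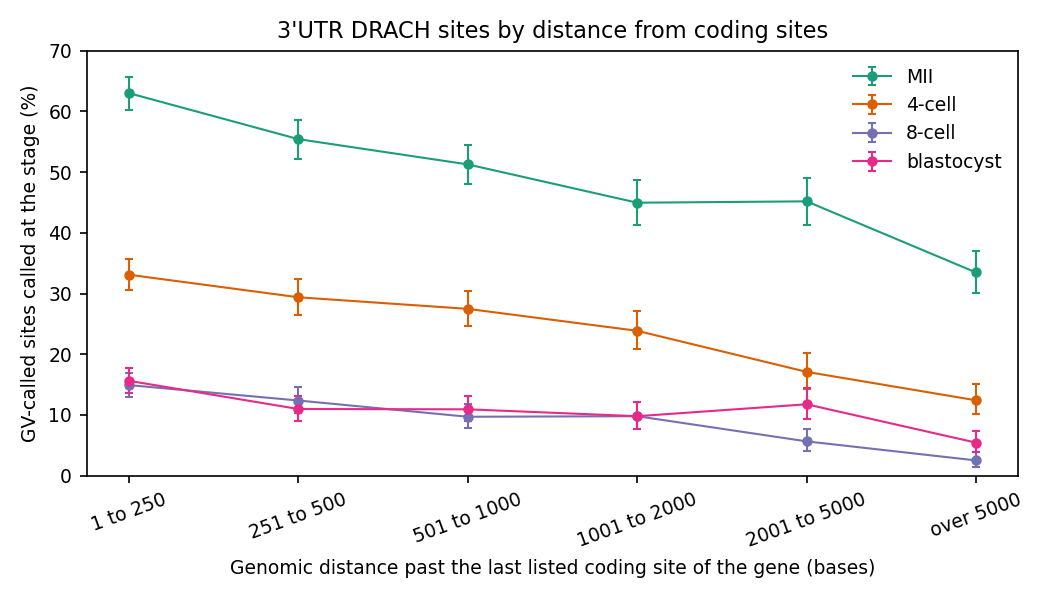
Percentage of GV-called 3'UTR DRACH sites called at MII, 4-cell, 8-cell and blastocyst stages (vertical axis) by genomic distance past the last listed coding site of the gene in bases (horizontal axis), with exact 95% binomial intervals as bars. At MII the share is 63.0% within 250 bases and 33.5% beyond 5000 bases, and in blastocysts the classes between 251 and 5000 bases lie at 9.79% to 11.8%.

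Calls in the 3'UTR and in the coding sequence of a gene did not always come together. In blastocysts 166 of the 1955 genes with DRACH sites in both regions had calls in both, and in 183 more genes with a called 3'UTR site no coding DRACH site was called. Another 129 genes had a called coding site only. At the 4-cell stage coding calls without 3'UTR calls were more frequent, with 253 genes called in the 3'UTR only and 460 in the coding sequence only. At the 8-cell stage these numbers were 167 and 351, and in morulae 125 and 82. The 1955 genes held 6693 coding and 4364 3'UTR sites, so their coding sequence had more chances of a call. The gene counts are not adjusted for this.

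MII calls that were absent at GV could be counted in 1 part of the genome. The table ends with sites called at MII and not at GV, listed by chromosome on the minus strand from 10 to 19 and then on chromosome 1, where the table stops. On that strand of chromosomes 10 to 19 both lists look complete from this row order, on which the counts of MII-only sites depend. There 870 3'UTR DRACH sites were called at MII and 1187 at GV, with 569 called at both and 301 at MII only. The shared sites were 65.4% of the MII sites and 47.9% of the GV sites, against 56.0% and 44.2% for coding DRACH sites. Median MII scores were 0.370 at the shared and 0.327 at the MII-only sites.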

How the data were processed

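The labels describe m6A-SAC-seq of bovine oocytes and embryos. Reads were trimmed with Trimmomatic 0.39 and aligned with STAR 2.5.3a, per the submitters' processing notes. The sources used here do not name the site caller, the genome build or the annotation, nor say how arms and replicates were merged. The authors' deposited table gives 1 score per adenosine and stage. It has 65536 lines with its header, so it may end at a spreadsheet's line limit, and 0 value columns lack a stage. The samples were mapped to stages from the labels.

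The members and gene lists were chosen with earlier results of these data known. Sites annotated as 3'UTR of protein-coding genes within DRACH and with a GV score of at least 0.1 were kept. A call was a score of at least 0.1. With 1 column per stage no test was made. Shares have exact Clopper-Pearson 95% intervals and medians have order-statistic 95% intervals, which cover the counting of sites only. Named genes are the 10 with most sites, the 10 with the highest share called at MII, 4-cell, 8-cell and blastocyst stages among genes with at least 4 sites, and the 10 with most sites and none called in blastocysts. Named sites are those called at all 8 stages, and those with extreme blastocyst to GV ratios or GV scores. A few of these genes are not reported here. Single sites of further genes were picked with their values in view. Of 2726 symbols 2711 had a protein-coding RefSeq entry. The computation recovered known shares and ratios at 7 of 7 stages on a simulation of 20000 sites. The ratios were checked only at simulated sites with GV scores well above the call limit. That check therefore does not cover ratios at sites with low GV scores. Alternatives changed the call score, the motifs, the genes, the weight of sites and the coding sites compared. Values were computed in Python 3.11.15 with pandas 2.3.3 and numpy 2.4.6, intervals with scipy 1.17.1, and plots drawn with matplotlib 3.10.9.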

Additional observations from a re-analysis of the deposited data

How the results depend on the processing

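Each stage has 1 pooled column, and leaving out a replicate was not possible. No paired analysis was possible because each stage has 1 pooled column. Leaving out RPL and MRPL genes or the 10 genes with most sites moved no share, difference or ratio beyond its interval. Stages are given in order of development, beginning with MII. The cause of these shifts was not tested.

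The percentages called were 38.7, 7.53, 16.7, 7.54, 6.89, 5.87 and 9.92 with a later call at 0.2, and 47.3, 7.45, 21.2, 8.68, 9.21, 8.05 and 13.6 with 1 site per gene. With every gene counted once they were 43.6, 7.06, 19.7 and 7.89 up to the 8-cell stage and 7.42 and 12.6 in morulae and blastocysts. With GGAC motifs only they were 55.3, 10.2, 27.0, 10.4 and 8.98 up to the 16-cell stage and 12.5 in blastocysts. MII and 4-cell percentages were 51.9 and 26.7 with any score above 0, and 50.4 and 25.4 without motifs that end in A. With a GV call at 0.2 the MII percentage was 52.4.

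The difference from coding DRACH sites in 4-cell embryos, -2.45 percentage points, was 0.41 with a later call at 0.2, -0.63 with GGAC motifs only and -4.46 in genes with both regions. At MII it was 8.83 with a later call at 0.2, 3.37 with any score above 0, 8.65 with GGAC motifs, 3.55 with coding sites weighted by GV score and 3.49 in genes with both regions. With GGAC motifs it was 1.94 in 2-cell embryos, 1.33 in 16-cell embryos and 5.69 in blastocysts. The difference from other 3'UTR sites was 26.7, 3.70, 8.91, 4.93, 4.86, 4.15 and 6.54 in genes with both kinds. With a GV call at 0.2 it was 25.5 at MII, 3.36 in 2-cell embryos and 4.18 in 8-cell embryos, and at MII it was 26.4 with a later call at 0.2 and 21.5 with GV score weights.

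Median log2 ratios to GV were -0.35, -0.21, -0.72, -0.33, 0.060 and 0.25 up to the morula with 1 site per gene. With a GV call at 0.2 they were -0.33, -0.20, -0.71 and -0.35 up to the 8-cell stage and 0.29 in morulae. With a later call at 0.2 they were -0.22, 0.065, -0.44, 0.47 and 0.43 at the MII, 2-cell, 4-cell, morula and blastocyst stages. They were -0.28 at MII and -0.60 in 4-cell embryos with any score above 0, and -0.17, -0.75 and -0.34 in 2-cell embryos, 4-cell and 8-cell stages with GGAC motifs. The median GV score was 0.574 with 1 site per gene, 0.565 with GGAC motifs, 0.505 with a GV call at 0.2 and 0.350 without motifs that end in A. With a later call at 0.2 the later calls of 20 of the 51 named genes differed by over 1.5 times.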
